A study of Mus musculus with 12 samples.

Results

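Expression of 8 genes that mark the minor non-neuronal cells of the main olfactory epithelium (MOE) was compared between ΔJ mice and wild-type mice. Trpm5, Chat, Pou2f3, Gnat3 and Avil mark Trpm5-positive microvillar or tuft cells, and Ascl3, Foxi1 and Cftr mark ionocyte-like cells. The genes were chosen by name, and each was read from the probe set whose single gene symbol in the platform annotation is that gene. Each of the 8 genes had 1 such probe set, out of 35556 probe sets and 19938 distinct single gene symbols on the array.

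The study asked how loss of the J element alters odorant receptor (OR) gene expression. This enhancer lies inside the cluster of class I OR genes on chromosome 7. Total RNA of the MOE from 6 ΔJ mice and 6 littermate wild-type mice was hybridised to 1 Affymetrix Mouse Gene array per mouse. The ΔJ mice were homozygous for a CRISPR-Cas9 deletion of the J element, made in B6C3F1 eggs and carried by 1 founder line. Per the study's methods, the founder was backcrossed to C57BL/6NCrSlc, and heterozygotes of the second backcross generation are named for the array work. How these gave the arrayed mice, which were ΔJ homozygotes and wild-type mice, is not described. Both genotypes can carry residual C3H sequence, while the labels give C57BL/6 for all mice. Whether the genotypes differ in this sequence near the deletion on chromosome 7 is not given. No mouse received a treatment, and no transgene or Cre is named for either genotype. The ΔJ group held 3 males and 3 females, with 1 mouse at postnatal day 33 (P33) and 5 at P30. The wild-type group held 2 males and 4 females, with 2 mice at P33 and 4 at P30. Whole tissue was used, so that fewer cells of a type and less RNA per cell cannot be told apart.

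Tuft cells are chemosensory epithelial cells with an apical tuft of microvilli. In the MOE, cells of this kind carry the cation channel Trpm5 and release acetylcholine onto neighbouring cells and nerve endings. Bitter, sweet and umami taste receptors, where they are present, signal through G proteins, phospholipase C and calcium release to open Trpm5. Ionocytes are rare epithelial cells, rich in proton pumps and ion channels, that move ions across the epithelial surface under control of Foxi1.

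Only Trpm5 and Ascl3 lie on chromosome 7, which also carries the deleted element. In the GRCm38.p6 assembly of RefSeq, the Ascl3 gene spans chr7:109727465-109731732 and begins 4.36 Mb past the end of Olfr692, a class I OR gene at the far end of the cluster. Trpm5 spans chr7:143071529-143094642, 37.7 Mb past the end of Olfr692. The other members are on 6 other chromosomes, with Gnat3 at chr5:17962570-18019668, Cftr at chr6:18170687-18322770 and Pou2f3 at chr9:43123927-43205755. Avil is at chr10:127000065-127020994, Foxi1 at chr11:34204341-34208089 and Chat at chr14:32408203-32465909. The 250 bases before the annotated start of the genes on chromosome 7 are shown, 5′ to 3′ on the minus strand, because these are the members on the chromosome of the deletion. Capitals mark TATAAA or its reverse complement TTTATA. The first sequence is chr7:109731733-109731982 and the second is chr7:143094643-143094892.
Ascl3: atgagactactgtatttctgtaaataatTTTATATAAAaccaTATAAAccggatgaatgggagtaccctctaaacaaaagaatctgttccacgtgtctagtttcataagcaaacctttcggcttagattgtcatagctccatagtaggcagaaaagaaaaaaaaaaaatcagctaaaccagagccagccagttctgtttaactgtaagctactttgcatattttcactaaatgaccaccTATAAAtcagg
Trpm5: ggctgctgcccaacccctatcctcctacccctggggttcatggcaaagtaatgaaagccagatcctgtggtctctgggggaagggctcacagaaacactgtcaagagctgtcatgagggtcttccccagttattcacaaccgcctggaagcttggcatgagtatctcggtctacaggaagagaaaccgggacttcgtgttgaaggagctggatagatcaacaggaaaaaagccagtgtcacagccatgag

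RefSeq promoters were found for 7 of the 8 members, Pou2f3 being the one without an entry. The Ascl3 stretch held TATAAA or TTTATA beginning 222, 218, 208 and 11 bases before the start, the first pair overlapping, and the other 6 members held none. Over all 32851 promoter stretches of the same length, 12.4% held this motif. The octamer ATGCAAAT, the motif of POU-domain factors such as Pou2f3, and the forkhead motif GTAAACA, of the family of Foxi1, were each found on either strand in 0 of 7 members, against 1.6% and 3.17% of all stretches. The GC content was 34.8% for Ascl3, at the 5th percentile of all stretches, and 76.4% for Cftr, at the 97.2 percentile.

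A level below is the log2 signal minus the 75th percentile of the same array, so that 0 is the 75th percentile of that array. The labels fitted the data, in that Xist was between 1.73 and 2.16 in the 7 females and at most -3.43 in the 5 males. The MOE was represented by its defining markers, with wild-type levels of 3.95 ± 0.067 (SD, n = 6) for Omp, a marker of mature olfactory sensory neurons (OSNs), and 4.92 ± 0.025 (SD, n = 6) for Cyp2g1 of sustentacular cells. In the females the Y-linked genes Kdm5d, Eif2s3y and Uty, which they do not carry, read between -5.30 and -3.05, which serves as a gauge of background. Arrays of replicates 1 to 3 and of replicates 4 to 6 differed in spread, with an SD of log2 values of 2.07 to 2.13 in the former and 2.21 to 2.23 in the latter. What distinguishes the 2 sets of arrays is not given in the labels, and all 3 P33 mice were in replicates 4 to 6. Each comparison of genotypes was therefore also made within each set. The J element is not a gene, so its loss was not read from a probe set, and the genotype comparison called 2 probe sets higher and 46 lower in ΔJ mice over the whole array.

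None of the 8 members passed the test between ΔJ and wild-type mice. In limma's moderated test with Benjamini-Hochberg adjustment over all probe sets, 0 of 8 passed an adjusted p of 0.05 and 0 of 8 had an unadjusted p under 0.05. Over all probe sets these shares were 0.135% and 3.33%. The genotypes overlapped in all 8 genes, whereas 0.301% of all probe sets showed no overlap of the 6 ΔJ and 6 wild-type mice. The smallest adjusted p was 0.993. All 8 log2 fold changes were below 0, from -0.14 to -0.019 with a median of -0.051, but those of Chat, Avil and Cftr turned positive when arrays were centred on the median or quantile normalized. Of all probe sets, 60.2% were below 0 and the median was -0.027. With 6 mice per genotype, the 95% confidence intervals of the members ran from 72.88% of the wild-type signal for the lowest bound, that of Gnat3, to 113.8% for the highest, that of Chat.

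**Figure D1:**
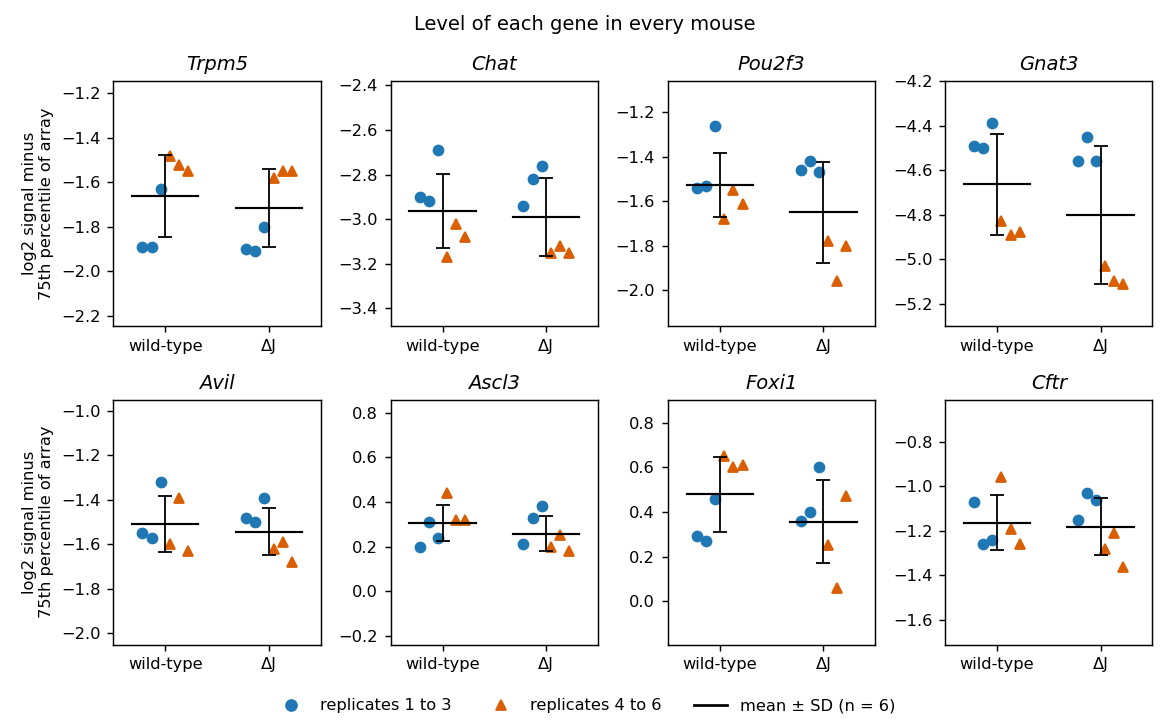
Level of each gene (log2 signal minus the 75th percentile of the array) in every mouse, with circles for replicates 1 to 3 and triangles for replicates 4 to 6; bars give the mean ± SD of 6 mice, and every panel spans the same range in log2 units. The genotypes overlap in all 8 panels, while Trpm5, Chat, Pou2f3 and Gnat3 separate circles from triangles within each genotype.

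Trpm5, the calcium-activated cation channel that depolarises tuft and taste cells, ranged in wild-type mice from -1.90 to -1.48 (median -1.59) and in ΔJ mice from -1.91 to -1.55 (median -1.69). The lowest 2 of the 6 ΔJ values were below every wild-type value, and the rest were interleaved. The log2 fold change was -0.054 (SE 0.103, 95% interval -0.28 to 0.17).

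Gnat3, the alpha subunit of gustducin, which couples taste receptors to their effectors, lay in wild-type mice between -4.89 and -4.39 (median -4.66) and in ΔJ mice between -5.11 and -4.46 (median -4.80). All 12 values were within the range of the Y-linked genes in females, so that its signal was not distinguished from this gauge of background. The log2 fold change was -0.14 (SE 0.146, 95% interval -0.46 to 0.18). Within each set of arrays, the 3 ΔJ mice of replicates 4 to 6 were all below the 3 wild-type mice, and in replicates 1 to 3 the genotypes overlapped. How many of all probe sets separate in this way within a set was not computed, so the separation is not read as a difference between genotypes. With the set of arrays as a block, the fold change was the same and its standard error fell to 0.0477, which gave an unadjusted p of 0.0128 and an adjusted p of 0.606 by limma. Gnat3 was the 1 member of 8 with an unadjusted p under 0.05 in that fit, in which 8.04% of all probe sets had one.

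Pou2f3, the POU-domain transcription factor on which tuft cells depend for their formation, ranged in wild-type mice from -1.68 to -1.26 (median -1.55) and in ΔJ mice from -1.96 to -1.42 (median -1.62). The lowest 3 ΔJ values, all of replicates 4 to 6, were below every wild-type value, and the highest value of all was that of wild-type replicate 3. The log2 fold change was -0.12 (SE 0.107, 95% interval -0.35 to 0.12), and -0.064 without wild-type replicate 3.

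Chat, choline acetyltransferase, which makes acetylcholine, was in wild-type mice between -3.17 and -2.69 (median -2.97) and in ΔJ mice between -3.15 and -2.76 (median -3.03). Every ΔJ value was inside the wild-type range, and 5 of the 12 values were at or below -3.05, the highest Y-linked level in females. The log2 fold change was -0.027 (SE 0.0986, 95% interval -0.24 to 0.19). Avil, advillin, an actin-bundling protein of the villin family, was in wild-type mice between -1.63 and -1.32 (median -1.56) and in ΔJ mice between -1.68 and -1.39 (median -1.54). A single ΔJ value lay below the wild-type range. Its log2 fold change was -0.03 (SE 0.0737, 95% interval -0.19 to 0.13).

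Of the ionocyte-like genes, Ascl3, a basic helix-loop-helix transcription factor, varied least among mice. Its wild-type levels lay between 0.21 and 0.44 (median 0.31) and its ΔJ levels between 0.18 and 0.38 (median 0.23), the groups overlapping except for the lowest 2 ΔJ values. Its log2 fold change was -0.048 (SE 0.0606, 95% interval -0.18 to 0.083), and the residual SD within genotypes, 0.081, was at the 5.36 percentile of all probe sets, whose median residual SD was 0.192. The residual SD of the other members lay between the 17.5 percentile, for Avil, and the 70.6 percentile, for Gnat3.

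Foxi1, the forkhead transcription factor of ionocytes, ranged in wild-type mice from 0.27 to 0.65 (median 0.53) and in ΔJ mice from 0.064 to 0.60 (median 0.38). Its log2 fold change was -0.12 (SE 0.101, 95% interval -0.34 to 0.096). In replicates 1 to 3 the ΔJ mice were higher by 0.11 on the log2 scale, with overlap. In replicates 4 to 6 the difference was -0.36 and all 3 ΔJ mice were below the 3 wild-type mice. Gnat3, Pou2f3 and Ascl3 were separated in the same way there. The share of all probe sets so separated within a set was not computed. These separations, of 3 against 3 mice, are therefore not read as a difference between genotypes. The genotype by set interaction of Foxi1 was -0.47 (SE 0.15) with an unadjusted p of 0.00979 and an adjusted p of 0.909 by limma. It was the 1 interaction of 8 with an unadjusted p under 0.05, against 3.83% of all probe sets, and after adjustment 0% of all probe sets passed.

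Cftr, the chloride channel of ionocytes, ranged in wild-type mice from -1.26 to -0.96 (median -1.22) and in ΔJ mice from -1.36 to -1.03 (median -1.18). The lowest 2 ΔJ values were below every wild-type value. Its log2 fold change was -0.019 (SE 0.0784, 95% interval -0.19 to 0.15). As for Foxi1, the difference was positive in replicates 1 to 3, at 0.11, and negative in replicates 4 to 6, at -0.15. Ascl3 had the same order, at 0.053 and -0.15, and the adjusted p of both interactions was 0.909 by limma. The genotype by set interaction therefore did not pass the test for any of the 3 ionocyte-like genes. In separate fits of each set, 0 members were called between genotypes.

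**Figure D2:**
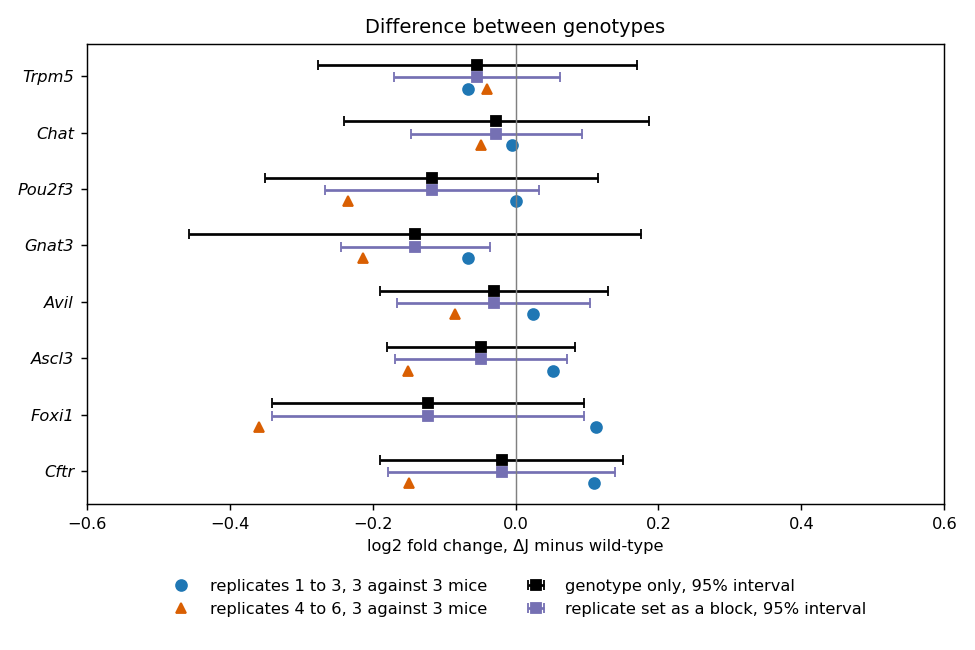
Log2 fold change of each gene (x axis, ΔJ minus wild-type) with the 95% confidence interval from genotype alone (black) and with the set of arrays as a block (purple), and the difference within replicates 1 to 3 (circles) and 4 to 6 (triangles). Only the blocked interval of Gnat3 (-0.24 to -0.036) leaves out 0, and it rests on an unadjusted test.

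None of the other genes of the same pathways passed the test either. Over 4 lists, 58 probe sets were measured, of which 0 passed the adjusted test and 0 had an unadjusted p under 0.05. Their median log2 fold change was -0.048, with 38 below 0.

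For transduction upstream of Trpm5, 0 of 16 genes passed, with a median log2 fold change of -0.035 and a range from -0.18, for the bitter receptor Tas2r138, to 0.099, for the G protein subunit Gng13. The phospholipase Plcb2 differed by -0.06 (SE 0.0611), and Itpr3, the calcium release channel of the endoplasmic reticulum, by -0.022 (SE 0.0954). The smallest p of this list, 0.111 before and 0.993 after adjustment by limma, was that of the bitter receptor Tas2r119, at -0.16 (SE 0.0961). All values of Tas2r105, Tas2r119, Rgs21 and Sucnr1 were below -3.05, the highest Y-linked level in females. Their signal was therefore not distinguished from this gauge of background. The mean levels of Tas2r108 and Rgs13 were also below -3.05 in both genotypes.

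Of the 4 genes of acetylcholine handling, 0 passed and the median was -0.063. The vesicular acetylcholine transporter Slc18a3, whose gene is nested in the Chat locus, differed by -0.12 (SE 0.113), and the choline transporter Slc5a7 by -0.12 (SE 0.151). The mean level of Slc5a7, -3.115 in wild-type and -3.238 in ΔJ mice, was below the highest Y-linked level in females, -3.05. The smallest unadjusted p of this list, 0.259 by limma, was that of the cholinesterase Bche, at 0.09 (SE 0.0765).

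Of 23 tuft cell identity and effector genes, 20 were measured and 0 passed, with a median of -0.055 and a range from -0.18 for Ly6g6f to 0.12 for Krt18. The transcription factor Gfi1b differed by -0.051 (SE 0.076), and the kinase Dclk1, a common tuft cell marker, by 0.014 (SE 0.0915). The smallest p of any of these lists was that of the adaptor protein Sh2d7, at -0.17 (SE 0.0867), with 0.0778 before and 0.993 after adjustment by limma.

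Of 20 ionocyte genes, 18 were measured and 0 passed, with a median of -0.039 and a range from -0.13 for Tfcp2l1 to 0.096 for Hepacam2. Among the subunits of the proton pump, Atp6v1b1 differed by -0.053 (SE 0.0691) and Atp6v0d2 by -0.13 (SE 0.108). The smallest unadjusted p, 0.198 by limma, was that of the chloride channel subunit Bsnd, at -0.12 (SE 0.087).

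**Figure D3:**
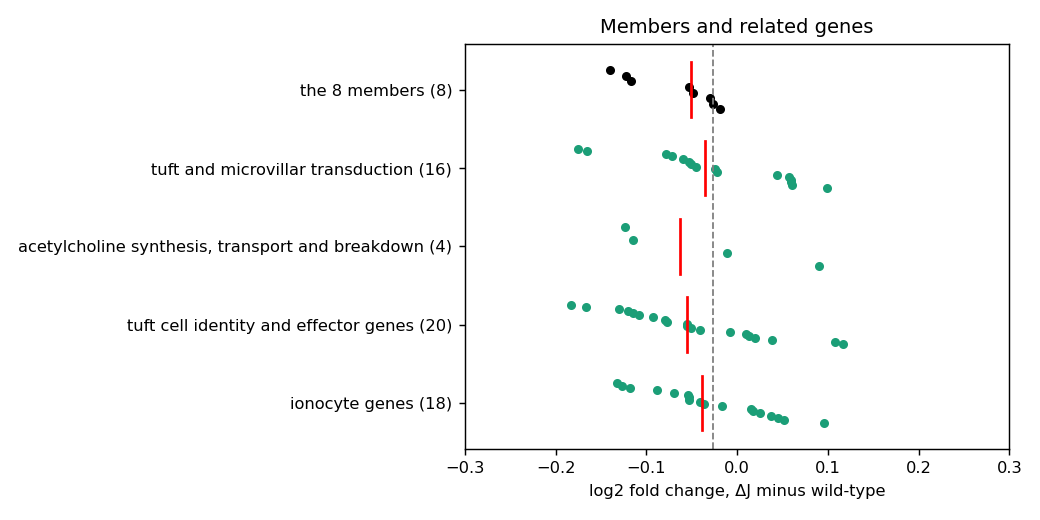
Log2 fold change (x axis, ΔJ minus wild-type) of the 8 members (black) and of the genes in 4 related lists (green, 1 point per probe set, spread vertically for visibility only), with the median of each list in red and the median of all probe sets, -0.027, as a dashed line. All points lie between -0.18 and 0.12.

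Nor did any marker of the other cells in the dissected tissue pass, with 0 of 38 called, 0 with an unadjusted p under 0.05, and a median log2 fold change of -0.013. The mature OSN markers Omp and Gnal differed by 0.036 and -0.15, and the immature OSN markers Gap43 and Gng8 by 0.18 and -0.14. The basal cell keratins Krt5 and Krt14 differed by -0.018 and -0.012 and Trp63, a factor of basal stem cells, by -0.2. The sustentacular markers Cyp2g1, Ermn and Cyp1a2 differed by -0.0091, -0.024 and -0.072, and the gland and respiratory markers Aqp5, Bpifa1 and Reg3g by -0.0077, 0.019 and -0.1. The immune markers Ptprc, Cd68 and Cpa3 differed by 0.087, 0.019 and -0.13, those of somatosensory neurons Trpv1 and Scn10a by -0.081 and -0.05, and those of vomeronasal neurons Gnao1 and Gnai2 by -0.096 and -0.042. All values of Cpa3 were below -3.05, the highest Y-linked level in females. The summed level of the 6 mature OSN markers ranged from 5.83 to 6.11 in ΔJ mice and from 5.92 to 6.08 in wild-type mice, and that of the 5 sustentacular markers from 6.39 to 6.60 and from 6.47 to 6.60.

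Sex did not pass the test for any member. With genotype in the model, 0 of 8 members were called between the 5 males and 7 females and 0 had an unadjusted p under 0.05, against 0.0141% and 4.65% of all probe sets. The largest estimate was that of Pou2f3, at 0.18 higher in males (SE 0.102, 95% interval -0.043 to 0.40, adjusted p = 0.896 by limma).

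Between the 2 sets of arrays, with genotype in the model, 4 of 8 members passed, against 42.2% of all probe sets, so that the share among the members was near that of the array. The 4 were Trpm5, Gnat3, Chat and Pou2f3. The share called over all probe sets fell with the level, from 59.8% under -4, where Gnat3 lies, through 44.5% between -3 and -2, where Chat lies, and 36.8% between -2 and -1 to 35.7% above 0, where Ascl3 and Foxi1 lie. Trpm5 was higher in replicates 4 to 6 by 0.30 (SE 0.0529, adjusted p = 0.000917 by limma), with a highest value of -1.63 in replicates 1 to 3 and a lowest of -1.58 in replicates 4 to 6. The signal of Gnat3, within the range of the Y-linked genes in females in all mice, differed by -0.48 (SE 0.0477, adjusted p = 1.91e-05 by limma), beside a median of -0.39 for all probe sets at its level. Chat (-0.28, SE 0.0549, adjusted p = 0.00193) and Pou2f3 (-0.28, SE 0.0684, adjusted p = 0.00627) were also lower by limma's test. Of the related pathway lists, 29 of 58 probe sets were called between the sets.

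Markers of other cells differed between the sets as well, with 12 of 38 called, a share below the 42.2% of all probe sets. Of the 7 gland and respiratory markers 6 were called, Aqp5 (0.32), Reg3g (0.37), Foxj1 (0.37), Muc5b (0.44) and Krt8 (0.21) higher in replicates 4 to 6 and Scgb1a1 (-0.87) lower. The signal of Scgb1a1, from -6.06 to -4.99 in wild-type and -6.00 to -4.96 in ΔJ mice, was within or below the range of the Y-linked genes in females. All probe sets under -4 had a median difference of -0.39. Of the 6 immune markers 2 were called, the macrophage genes Cd68 (0.49) and Lyz2 (0.68), both higher. The other immune markers were not called, with Cx3cr1 (-0.11), Ptprc (-0.11) and Cd3e (-0.25) below 0 and Cpa3 (0.030) above. The glial factor Sox10 (0.49) and Gnai2 (0.20) were called higher, and Trpv1 (-0.29) lower. Neurog1 (-0.19), called lower, was the 1 of 5 basal markers called. Krt14 (-0.11) and Trp63 (-0.13) were also below 0, and Krt5 (0.10) and Kit (0.14) above. Of the mature OSN and sustentacular markers, 0 of 6 and 0 of 5 were called. The part of these markers in the differences of the tuft genes was not tested. Markers not named in the genotype comparison were named here after their values were seen, because they were called or share a list with a called marker.

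Avil, Foxi1 and Cftr differed by -0.12, 0.044 and -0.073 between the sets and Ascl3 by 0.0044, with adjusted p-values from 0.155 to 0.958 by limma. With the values as deposited, without the shift of each array, 2 members remained called, Trpm5 and Gnat3, and Avil and Cftr changed sign. The median difference between the sets over all probe sets was -0.095 with the shift, 0.046 without it and -0.008 with centring on the median. It also moved with the level, from -0.39 for probe sets under -4 to -0.007 for those above 0. It was -0.171 between -3 and -2, the range of Chat, and -0.081 between -2 and -1, that of Trpm5, Pou2f3, Avil and Cftr. The part of the array spread in these differences was not tested.

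**Figure D4:**
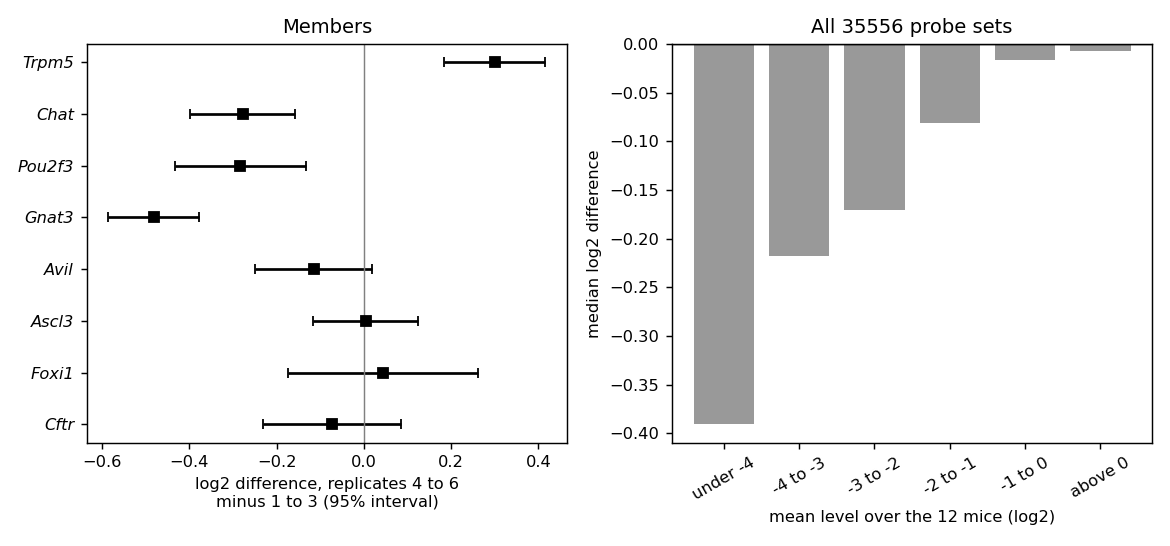
Left, log2 difference of each gene between replicates 4 to 6 and replicates 1 to 3 (x axis) with its 95% confidence interval, genotype in the model. Right, median of the same difference (y axis) over all probe sets by mean level in the 12 mice (x axis), from -0.39 under -4 to -0.007 above 0; Trpm5, at 0.30, is the 1 called member above 0.

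Variation among the members across mice was examined over all 28 pairs, with permutation tests and Benjamini-Hochberg adjustment over the pairs. On the levels themselves 6 pairs passed, all among tuft genes. Trpm5 with Gnat3 was the only negative pair among them, with r = -0.775 (adjusted p = 0.03589 by permutation). Of all 10 tuft pairs, 6 had a positive r on the levels. Since the arrays fell into 2 sets that differ in these genes, the mean of each genotype within each set was then removed, which leaves the variation among mice of the same genotype and set. All 10 pairs of tuft genes then had a positive Pearson's r, from 0.186 to 0.809 with a median of 0.589, against a median of 0.088 for the 3 ionocyte-like pairs and 0.116 for the 15 pairs between the groups. With mice rearranged within their own genotype and set, 0 of 28 pairs passed and 2 had an unadjusted exact p under 0.05, Chat with Avil and Trpm5 with Avil. For Chat with Avil, r was 0.8095 (exact p = 0.02238, adjusted p = 0.5185) and Spearman's rho 0.7413 (exact p = 0.02315, adjusted p = 0.6201) over 12 mice, and r was 0.7755 without the 2 mice farthest from the median of Chat. For Trpm5 with Avil, r was 0.7266 (exact p = 0.04475, adjusted p = 0.5185) and rho 0.6923 (exact p = 0.06173, adjusted p = 0.6201), and r was 0.5125 without the 2 mice farthest from the median of Trpm5.

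These correlations rested in large part on 1 mouse. Wild-type replicate 3 had the highest level of replicates 1 to 3 in all 5 tuft genes, above the mean of wild-type replicates 1 and 2 by 0.26 for Trpm5, 0.221 for Chat, 0.275 for Pou2f3, 0.107 for Gnat3 and 0.237 for Avil. Foxi1 was above that mean by 0.183, and Ascl3 and Cftr were at -0.016 and -0.079 from it. The same array had the lowest spread of the 12, with an SD of 2.07. Over all probe sets its median difference was 0.097 at levels from -2 to -1, 0.152 from -3 to -2 and 0.106 under -4. Among probe sets at its own level, Gnat3 was at the 50.1 percentile and Chat at the 64.4 percentile. Avil, Trpm5 and Pou2f3 were at the 77.5, 81.2 and 83.5 percentiles. Without wild-type replicate 3, the median r of the 10 tuft pairs was 0.134, with 6 above 0, and 0 of 28 pairs passed or had an unadjusted exact p under 0.05. The r of Chat with Avil was then 0.6321 over 11 mice (exact p = 0.1782, adjusted p = 0.8669). Within replicates 1 to 3 and within replicates 4 to 6, each with 6 mice, 5 of 28 pairs had an unadjusted exact p under 0.05 and 0 passed the adjustment, the smallest exact p that 6 mice allow being 0.00278.

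**Figure D5:**
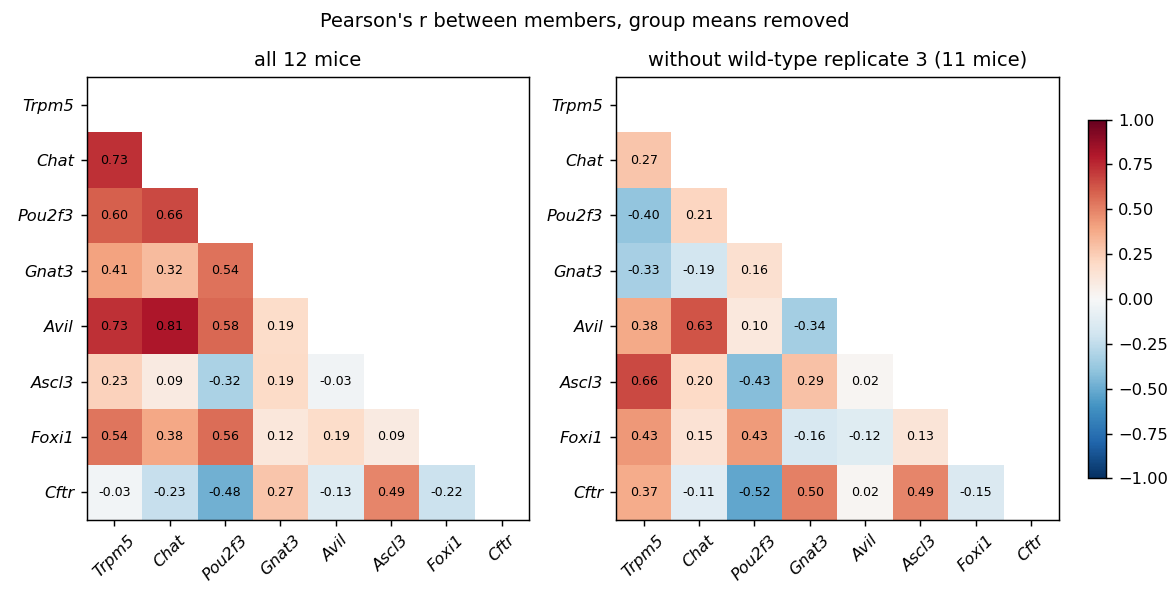
Pearson's r between each pair of members after removal of the mean of each genotype within each set of arrays, over 12 mice (left) and without wild-type replicate 3 (right), on a colour scale from -1 to 1. The 10 tuft pairs are all positive on the left, and 6 of 10 are positive on the right.

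Of 18497 probe sets with a single gene symbol and a mean level above -3, the levels most like those of Trpm5 over the 12 mice, on the same scale with group means removed, were those of Piwil2 (r = 0.956), Ppef2 (0.94), Fancd2 (0.937), Fam83e (0.934) and Pla1a (0.934). Chat ranked 496 with r = 0.733, Avil 538 with r = 0.727, Pou2f3 1500 with r = 0.601 and Gnat3, below that level and added for comparison, 3841 with r = 0.406. Without wild-type replicate 3, over 11 mice, these 5 genes ranked from 49, for Fancd2 (r = 0.794), to 302, for Pla1a (0.642), Chat and Avil were at r = 0.275 and 0.377, and Pou2f3 and Gnat3 turned negative, at -0.398 and -0.329, so that the likeness to Trpm5 depended on this mouse. Ascl3 moved from rank 6706 (r = 0.228) to rank 256 (0.66). For Ascl3 the most alike were Marveld3 (r = 0.922), Tom1 (0.892 and, for another probe set, 0.877), Lrig3 (0.891) and Ppm1h (0.886), while Cftr ranked 986 with r = 0.489 and Foxi1 7036 with r = 0.088. Without wild-type replicate 3 the 5 probe sets ranked between 1 and 9, with r from 0.877 to 0.96, Cftr was at 0.486 and Foxi1 at 0.126. These coefficients are descriptive, and the mice share the array spread of each library.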

How the data were processed

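Total RNA from the MOE of 12 mice was measured on Affymetrix Mouse Gene arrays. The authors deposited log2 values per probe set, made with Affymetrix Expression Console per the submitters' notes. Its version is not given in the sources used here, nor is the way in which probes were corrected and combined. The study's methods name a 75th percentile shift and a moderated test. Genes were named through the platform annotation, which gave 21789 probe sets 1 symbol, 1621 several and 12146 none. Coordinates and promoters came from RefSeq (GRCm38.p6).

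The 75th percentile of each array was subtracted. Genotype was fitted with limma 3.58.1 (R 4.3.3; lmFit and eBayes) over all 35556 probe sets, with Benjamini-Hochberg adjustment and a threshold of 0.05. Sex and set of arrays were fitted with genotype. The values carry no detection calls, and precision is limited by the number of arrays. Nothing in the labels beyond separate mice describes the replicates, and no pair of arrays was identical. Replicate numbers come from the labels. The deviations of same-numbered ΔJ and wild-type arrays from the mean of their genotype correlated at 0.185 to 0.441 in all 6 pairs. Same-numbered arrays belong to the same set of arrays, whose difference was not removed. These correlations therefore cannot decide whether the numbers pair the mice, and the replicate block was used only as an alternative. Correlations of levels used 100000 permutations for 12 mice and exact enumeration for 6. After removal of group means, mice were rearranged only within genotype and set, with all 1296 rearrangements (432 without wild-type replicate 3), a choice made after seeing the data. All tests were two-sided. Summed levels are log2 of summed linear signals. All 8 members were named. Of each list, the first 2 genes, the gene with the smallest p and any called gene were named, and genes at the ends of a range were added after their values were seen. The members, the lists and the split into replicates 1 to 3 and 4 to 6 were chosen with earlier results of these data known. Some listed genes are not reported here. Alternatives covered the scaling, a filter on levels under -3, probe sets with 1 symbol, the variance model, sex and age as covariates, both blocks, P30 mice, each set of arrays and each mouse left out. The code was tested on simulated data.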

Additional observations from a re-analysis of the deposited data

Results flagged for a closer look

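The level of Pou2f3 in wild-type replicate 3, -1.26, stood apart from the other 5 wild-type mice, its gap to the nearest of them being 0.647 of the range of the group, above Dixon's critical value at the 95% level. It was the 1 value that stood apart in 16 groups of 6 mice (8 genes in each genotype), and chance gives about 5% of groups such a value.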

How the results depend on the processing

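The counts of 0 members, 0 listed pathway genes and 0 other markers called between genotypes held under all 25 alternatives, and that of 0 members between sexes under all 23. With the replicate number as a block, which treats same-numbered mice as pairs, 0 members were called and 51 probe sets over the array. No call among the members changed. With the set of arrays as a block, 71 probe sets were called over the array. Genotype log2 fold changes, none of them called, changed sign as follows. Centring on the median gave 0.0154 for Chat, 0.012 for Avil and 0.0229 for Cftr, and quantile normalization gave 0.029, 0.0109 and 0.0126. Replicates 1 to 3 alone gave 0.0238 for Avil, 0.0532 for Ascl3, 0.1134 for Foxi1 and 0.1104 for Cftr. Leaving out 1 mouse at a time gave -0.0728 to 0.0283 for Chat, -0.0608 to 0.0075 for Avil and -0.0501 to 0.0224 for Cftr, the positive values being without wild-type replicate 3 (Chat 0.0283, Avil 0.0075), wild-type replicate 4 (Cftr 0.0224), ΔJ replicate 4 (Chat 0.0048) or ΔJ replicate 6 (Chat 0.0056, Cftr 0.0169). The other members kept their sign, with -0.1004 (without wild-type replicate 1) to -0.014 (without ΔJ replicate 2) for Trpm5, -0.1637 (ΔJ replicate 2) to -0.0542 (ΔJ replicate 5) for Pou2f3, -0.21 (ΔJ replicate 2) to -0.0786 (ΔJ replicate 6) for Gnat3, -0.0729 (ΔJ replicate 3) to -0.021 (wild-type replicate 4) for Ascl3 and -0.1699 (ΔJ replicate 3) to -0.0637 (ΔJ replicate 5) for Foxi1. For male minus female, Cftr was 0.0042 with age as a covariate, 0.0002 in P30 mice and -0.0785 to 0.0008 with 1 mouse left out. Trpm5 was 0.0375 with the set as a block, 0.0766 in replicates 1 to 3, 0.0057 in replicates 4 to 6 and -0.0707 to 0.0284 with 1 mouse left out. Foxi1 was -0.014 in replicates 1 to 3, and Gnat3 -0.0437 in replicates 4 to 6. Between the sets of arrays, 2 members were called without the shift, where Chat was -0.1363 (adjusted p = 0.0528 by limma), Pou2f3 -0.1419 (adjusted p = 0.103), Avil 0.0257 and Cftr 0.068; Chat also missed the threshold under quantile normalization (-0.1012, adjusted p = 0.111). Cftr was 0.0148 with centring on the median, Ascl3 -0.0006 under quantile normalization, -0.0016 with sex as a covariate and -0.0255 to 0.0321 with 1 mouse left out, and Foxi1 -0.0607 with age as a covariate and -0.063 in P30 mice. The count of 6 correlated pairs became 0 with group means removed, 2 without the shift and 0 with group means removed and without wild-type replicate 3, the last a setting chosen after seeing the data. The cause of these changes was not tested. The filter on low levels left out Gnat3, which was not tested there. A lone probe set per gene and 6 mice per genotype limit the precision, and Gnat3 and Chat lie near the level of Y-linked genes in females.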
